A study of Mus musculus with 8 samples.

Results

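The immunity-related GTPases (IRG proteins) were followed in polarized mouse gut epithelial cells that were left untreated or exposed to IFN-λ2 or IFN-β. The family members examined were Irgm1, Irgm2, Igtp, Iigp1, Ifi47, Tgtp1 and Gm4951, found by these gene names on the array, and every probe carrying one of the names was kept. They made up 7 of the 31791 gene names on the array and 9 of its 39429 probes, since Irgm1 and Iigp1 had a pair of probes each, and all 9 probes passed the filter on dim probes that left 26009 probes for testing. The cells were IEC10, an immortalized intestinal epithelial line that carries a luciferase reporter driven by the Mx2 promoter. They were grown for 21 days on transwell inserts and then left untreated (control, 2 arrays, replicates 2 and 3, given as medium in the labels and as PBS in the methods) or exposed for 9 h to IFN-λ2 at 20 ng/mL (3 arrays) or to IFN-β at 500 U/mL (3 arrays), and total RNA was hybridized to a 1-color Agilent array. All groups came from the same line, 1 dose and 1 time, so the cytokines were compared at these doses only, and no source says whether the replicates were separate cultures. If they were not, the p-values measure technical spread only.

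IRG proteins are GTPases of mice that accumulate on the vacuoles in which intracellular parasites and bacteria live, and their genes are classical targets of IFN-γ and of other interferons. The family falls into 2 classes named after a motif in the GTP-binding site. GMS proteins (Irgm1, Irgm2 and Igtp, also called Irgm3) sit on the cell's own membranes and hold the other class inactive there, while GKS proteins (Iigp1, also called Irga6, Ifi47 or Irgd, Tgtp1 or Irgb6, and Gm4951) load onto pathogen vacuoles as effectors. Type I interferons such as IFN-β and type III interferons such as IFN-λ2 bind different receptors, but both signal through the transcription factor complex ISGF3, which binds the interferon-stimulated response element (ISRE). The gamma-activated site (GAS) is the response element of IFN-γ signalling.

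The 5 genes of chromosome 11 lie in clusters. On the mm9 build the array probes placed Irgm1 (chr11:48679069-48679128 and chr11:48679632-48679691, minus strand), Tgtp1 (chr11:48799587-48799646, minus strand) and Ifi47 (chr11:48910402-48910461, plus strand) in one part of chromosome 11 and Igtp (chr11:58020927-58020986, plus strand) and Irgm2 (chr11:58036093-58036152, plus strand) in another. Upstream sequence was held for 5 of the 7 members in the RefSeq promoter table (GRCm38.p6), without Iigp1 and Gm4951. The 250 bases before the gene start of the members that held a match are shown so that the motifs can be seen in place, and Irgm2, Igtp and Tgtp1 share the spacing of a pair of them. Capitals mark every match, on either strand, to an ISRE core, the word GAAA repeated after any 2 bases, or to a GAS, TTCNNNGAA with N for any base.
Irgm1, chr11:48871421-48871670, minus strand: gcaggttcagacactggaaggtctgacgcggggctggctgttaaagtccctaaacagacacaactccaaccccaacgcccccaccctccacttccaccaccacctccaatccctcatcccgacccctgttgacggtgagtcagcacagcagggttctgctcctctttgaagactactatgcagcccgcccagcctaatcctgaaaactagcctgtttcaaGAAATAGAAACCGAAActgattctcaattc
Irgm2, chr11:58214727-58214976, plus strand: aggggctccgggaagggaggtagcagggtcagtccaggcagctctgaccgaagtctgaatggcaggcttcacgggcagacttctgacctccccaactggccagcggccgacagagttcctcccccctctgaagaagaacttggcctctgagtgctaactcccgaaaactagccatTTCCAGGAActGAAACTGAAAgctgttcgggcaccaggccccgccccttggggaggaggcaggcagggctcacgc
Igtp, chr11:58199306-58199555, plus strand: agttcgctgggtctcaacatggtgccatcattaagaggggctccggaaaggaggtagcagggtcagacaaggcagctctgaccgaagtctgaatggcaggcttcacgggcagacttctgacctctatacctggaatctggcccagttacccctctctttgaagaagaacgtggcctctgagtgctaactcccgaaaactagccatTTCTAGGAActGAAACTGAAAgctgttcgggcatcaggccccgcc
Tgtp1, chr11:48992247-48992496, minus strand: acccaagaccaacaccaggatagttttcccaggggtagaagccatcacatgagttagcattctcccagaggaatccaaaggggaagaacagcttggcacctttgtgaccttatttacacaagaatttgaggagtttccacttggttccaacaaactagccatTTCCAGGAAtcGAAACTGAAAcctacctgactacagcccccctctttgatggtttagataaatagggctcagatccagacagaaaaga

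An ISRE core was found in 4 of these 5 members, against 2.98% of the 32851 promoters of the table. Irgm1 held 2 overlapping matches that began 30 and 24 bases before the start, and the other matches began 64 bases (Irgm2), 34 bases (Igtp) and 77 bases (Tgtp1) before it. A GAS was found in 3 members, against 7.02% of all promoters, and in Irgm2, Igtp and Tgtp1 it ended 2 bases ahead of the ISRE core. The whole arrangement, a GAS, any 2 bases and an ISRE core, was searched for after it had been seen in the members, and 5 of the 32851 promoters held it (0.0152%). These were Irgm2, Igtp, Tgtp1, Tgtp2, a near-identical copy of Tgtp1, and Gm12185, another gene of the family. The windows are related sequences, with an identical run of 55 bases between Irgm2 and Igtp and of 27 bases between Tgtp1 and Tgtp2, so the matches are not separate observations. The window of Ifi47 held neither motif, which says only that these letters are not in it. With the stricter ISRE, in which CT follows the core directly, only Irgm1 kept a match (0.222% of all promoters), and with the stricter GAS TTCCNGGAA Irgm2 and Tgtp1 did (0.913%). A match of letters is a description and no evidence of binding.

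The arrays were checked against their labels first. Of the 12 gut epithelial markers, 10 were well above background on all 8 arrays (among them Epcam, Cdh1 and Vil1) and Cdx2 on none, and their summed signal ranged from 453188 to 465615 units in the control, from 461542 to 501528 with IFN-β and from 536759 to 565453 with IFN-λ2. None of 6 fibroblast markers was above background on all arrays. Of the markers of T and NK cells, the usual source of IFN-γ, Cd3g, Cd3d, Cd8a and Klrb1c were above background on no array but Cd3e, Cd4, Nkg7 and Prf1 on all 8, and the summed signal of the 8 genes was between 1389 and 1612 units with IFN-λ2 and between 1629 and 1834 units in the control. Of 7 macrophage and dendritic cell markers, Cd68, Csf1r and Itgam were above background on all arrays, and the sum was 8422 to 10756 units with IFN-λ2 against 10555 to 14211 units in the control and 8902 to 16183 units with IFN-β. The part of these differences in the results was not tested. The interferon response genes used as references rose with both cytokines. Isg15, a ubiquitin-like modifier, was raised 13.5-fold by IFN-λ2 and 12.8-fold by IFN-β, and Usp18, its protease, 13.7-fold and 11.8-fold. Ifit1 was raised 16.3-fold and 9.94-fold. Compared directly, IFN-λ2 exceeded IFN-β by 1.64-fold for Ifit1 (limma adjusted p = 0.00252). The direct difference was 1.05-fold for Isg15 (adjusted p = 0.739) and 1.15-fold for Usp18 (adjusted p = 0.314). Signals are given in normalized units, scaled so that 1500 is the 75th percentile of each array. Fold changes are differences of mean log2 signal. A probe is called where its limma p, adjusted over all 26009 probes by Benjamini and Hochberg's method, is under 0.05. Signals of different probes are not on one scale, so only changes of a probe between arrays are read.

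Every member rose with both cytokines. With IFN-λ2, 9 of 9 probes were called higher than control, each by at least 7.10-fold, against 10.1% of all probes tested called in that direction. With IFN-β, 9 of 9 probes were also called higher, by 3.98-fold or more, against 1.42% of all probes. A change of at least 2-fold was reached by all 9 probes in both comparisons, but by 2.68% and 0.88% of all probes. The median log2 change was 3.35 with IFN-λ2 and 3.00 with IFN-β over the members' probes, and 0.00 and 0.02 over all probes tested. Both comparisons share the 2 control arrays.

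**Figure D1:**
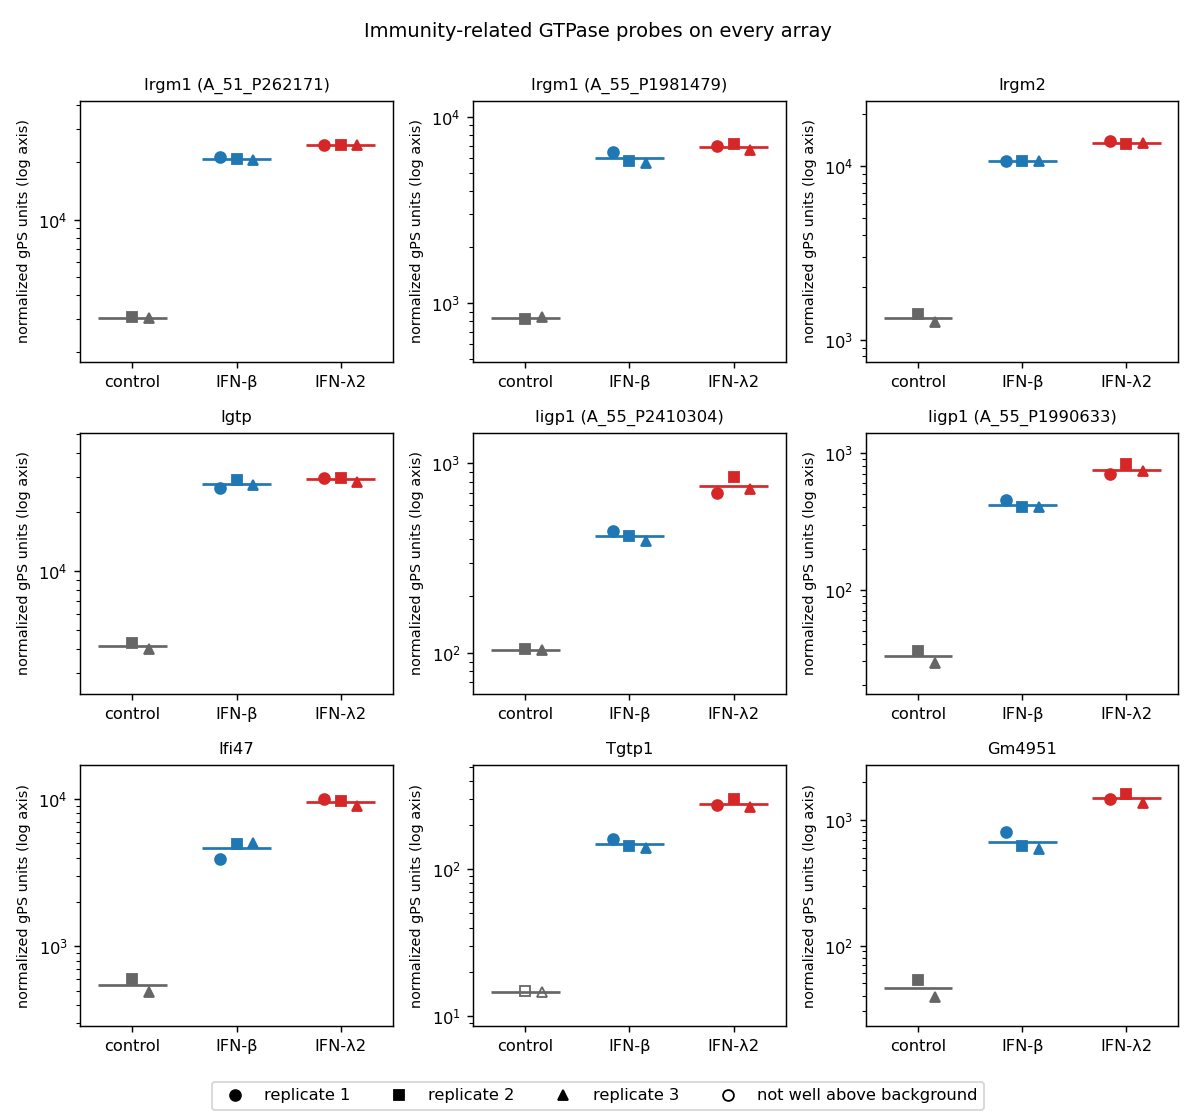
Signal of the 9 member probes on each of the 8 arrays, in normalized units of processed signal on a log axis that differs between panels. Symbols are replicates, lines are group means, and open symbols were not well above background. The stimulated arrays lie above both control arrays for every probe, and Igtp is the probe for which the IFN-λ2 and IFN-β arrays overlap.

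The regulators of the GMS class were already well above background in untreated cells, as were all GKS probes except that of Tgtp1. The GMS probes rose 6.71-fold to 10.2-fold. Irgm1, which acts on Golgi, lysosomes and autophagy, was read by probe A_51_P262171 at 3068 and 3027 units in the control, at 24791, 24708 and 24691 units with IFN-λ2 and at 21415, 20784 and 20639 units with IFN-β. The 3 groups did not overlap and their order was control, IFN-β, IFN-λ2. The rise over control was 8.11-fold with IFN-λ2 (95% confidence interval 7.35 to 8.96, limma adjusted p = 1.79e-06) and 6.87-fold with IFN-β (6.22 to 7.59, adjusted p = 4.62e-06). The second Irgm1 probe, A_55_P1981479, read 822 and 841 units in the control, 6979, 7171 and 6601 units with IFN-λ2, and 6460, 5820 and 5652 units with IFN-β. Its folds over control were 8.32 and 7.18.

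Irgm2, a Golgi-associated regulator, showed 1398 and 1265 units in the control, 13936, 13330 and 13512 units with IFN-λ2, and 10638, 10668 and 10626 units with IFN-β. Its rise of 10.2-fold with IFN-λ2 (95% confidence interval 9.11 to 11.5, limma adjusted p = 1.79e-06) and 8.0-fold with IFN-β (7.13 to 8.99, adjusted p = 4.62e-06) was the highest of the class in both comparisons. Igtp, which resides at the endoplasmic reticulum, showed 4271 and 3979 units in the control, 29609, 29761 and 28506 units with IFN-λ2, and 26487, 29138 and 27470 units with IFN-β. The IFN-λ2 and IFN-β arrays overlapped, since IFN-β replicate 2 was above IFN-λ2 replicate 3. Igtp was printed 10 times on each array, and the coefficient of variation of these copies was 2.02% to 4.98%. It rose 7.10-fold with IFN-λ2 (6.29 to 8.02, adjusted p = 2.65e-06) and 6.71-fold with IFN-β (5.94 to 7.58, adjusted p = 5.64e-06).

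The effectors of the GKS class also rose at every probe, but the control readings of Gm4951, Tgtp1 and Iigp1 were low and the size of their rise, and so its order among the members, depended on how the background was handled. Gm4951, a relative of Iigp1 encoded near it on chromosome 18, read 53.0 and 38.8 units in the control, 1480, 1615 and 1379 units with IFN-λ2, and 799, 625 and 592 units with IFN-β. This was a rise of 32.8-fold with IFN-λ2 (95% confidence interval 24.5 to 43.9, limma adjusted p = 7.28e-06) and of 14.7-fold with IFN-β (11.0 to 19.7, adjusted p = 3.84e-05), and the 3 groups did not overlap. With normexp background correction the log2 changes of Gm4951 were 3.94 and 2.84, in place of 5.04 and 3.88.

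Ifi47 showed 604 and 487 units in the control, 10029, 9636 and 9022 units with IFN-λ2, and 3935, 4941 and 5053 units with IFN-β. IFN-λ2 raised it 17.6-fold (log2 change 4.14, SE 0.14, limma adjusted p = 6.53e-06) and IFN-β 8.50-fold (log2 change 3.09, SE 0.14, adjusted p = 3.86e-05), and no array of one group reached another group. Tgtp1, an effector that reaches vacuoles early, was not well above background on either control array, at 14.9 and 14.5 units, but was on all stimulated arrays, with 275, 302 and 264 units for IFN-λ2 and 161, 144 and 141 units for IFN-β. Untreated cells therefore set only an upper bound, and the rise of Tgtp1 was at least 15.8-fold under IFN-λ2 (adjusted p = 1.79e-06) and at least 8.40-fold under IFN-β (adjusted p = 5.64e-06). With normexp background correction the log2 changes of Tgtp1 were 2.20 and 1.40, and with a floor of 50 units 2.48 and 1.57, both smaller than these bounds. Both medians above are the same with Tgtp1 at its bound, which sets the mean log2 signal of the stimulated arrays against the mean over both control arrays of the lowest signal that counted as well above background on each (20.0 and 15.6 units). The Tgtp1 probe is annotated to transcripts of both Tgtp1 and Tgtp2, so the 2 genes cannot be told apart by it.

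The Iigp1 probes disagreed on the size of the rise. Iigp1 is the best studied effector of the family. Probe A_55_P1990633 read 35.7 and 29.3 units in the control, 698, 826 and 740 units with IFN-λ2, and 454, 402 and 403 units with IFN-β. Probe A_55_P2410304 read 105 and 103 units in the control, 696, 852 and 729 units with IFN-λ2, and 441, 413 and 392 units with IFN-β. Under IFN-λ2 the rise was 23.3-fold by the first probe and 7.25-fold by the second, and under IFN-β 13.0-fold and 3.98-fold. All 4 comparisons were called, with limma adjusted p between 2.65e-06 and 7.17e-05, so the probes differ in the size of the rise and not in its direction. With normexp background correction the log2 changes were 3.20 and 2.31 under IFN-λ2, and 2.43 and 1.48 under IFN-β, in the same order of probes. A_55_P2410304 shared a 15-base word with 4 probes of other genes on the array, a count reached by 5.66% of all probes, and A_55_P1990633 did so with 1. The part of other transcripts in the readings was not tested.

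**Figure D2:**
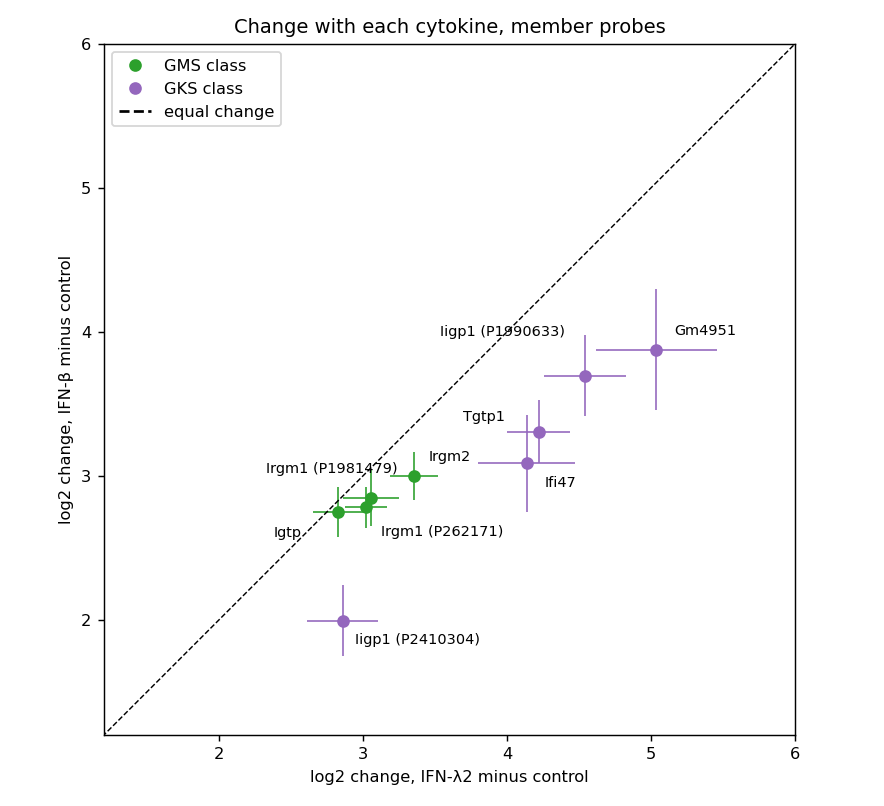
Mean log2 change over control for each member probe with IFN-λ2 (horizontal axis) and IFN-β (vertical axis), with 95% confidence intervals from limma and a dashed line where both changes are equal. GMS probes lie near the line at changes of 2.83 to 3.35 with IFN-λ2, and GKS probes lie below it, at up to 5.04 for Gm4951.

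IFN-λ2 and IFN-β were then compared directly, without the control arrays in the difference. The mean was higher with IFN-λ2 for all 9 probes, and 7 of 9 were called higher with IFN-λ2, against 5.64% of all probes tested. A 2-fold difference was reached by 2 of them, Gm4951 and Ifi47, against 1.44% of all probes. For 8 of 9 probes every IFN-λ2 array was above every IFN-β array, which held for 16.7% of all probes. The median difference was 0.85 on the log2 scale over the members' probes and -0.01 over all probes.

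Among the members the difference fell along the classes, a grouping that was laid over the probes after their values were known and was not tested. A difference of the GKS size was not particular to these genes. Of 14 other large GTPases 4 were called higher with IFN-λ2, among them Mx1 (1.96-fold) and Gbp4 (1.86-fold). The 5 GKS probes were 1.80-fold to 2.23-fold higher with IFN-λ2, and all 5 were called. Gm4951 was 2.23-fold higher (95% confidence interval 1.72 to 2.90, limma adjusted p = 0.00574), Ifi47 2.07-fold (1.68 to 2.55, adjusted p = 0.0036) and Tgtp1 1.88-fold (1.65 to 2.16, adjusted p = 0.00129). The Iigp1 probes, which had differed in their rise over control, gave nearly the same value here, 1.82-fold for A_55_P2410304 (1.56 to 2.12, adjusted p = 0.00235) and 1.80-fold for A_55_P1990633 (1.51 to 2.14, adjusted p = 0.00421).

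The 4 GMS probes were 1.06-fold to 1.28-fold higher with IFN-λ2, and 2 were called. Irgm2 was 1.28-fold higher (95% confidence interval 1.15 to 1.42, limma adjusted p = 0.0149). Irgm1 was 1.18-fold higher by probe A_51_P262171 (1.08 to 1.29, adjusted p = 0.0341, or 0.0746 with the replicate number as a block) and 1.16-fold by probe A_55_P1981479 (1.03 to 1.31), which was not called (adjusted p = 0.128). For Igtp the ratio was 1.06 and its interval ran from 0.949 to 1.18 (adjusted p = 0.502), so a difference above 1.18-fold lies outside the interval. The call of Irgm1 probe A_51_P262171 was lost when any 1 of the 6 stimulated arrays was left out (adjusted p from 0.0523 to 0.121), and that of Irgm2 without IFN-λ2 replicate 1 (0.0672) or IFN-β replicate 3 (0.0591).

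Replicates of the same number were hybridized on the same slide. Within a slide, IFN-λ2 was above IFN-β in 27 of 27 pairs of readings of the members, by 1.54-fold to 2.58-fold for the GKS probes and by 1.02-fold to 1.31-fold for the GMS probes. These are 9 probes on 3 slides and not separate observations, and 24.6% of all probes tested were likewise higher under IFN-λ2 on all 3 slides. The arrays of a group all had the same position on their slides, which cannot be told apart from the treatment. No member reading was saturated. The Tgtp2 probe A_55_P2062246 read 2845 and 2392 units in the control, 27070, 29563 and 29381 units with IFN-β and 46907, 46379 and 45917 units with IFN-λ2, which is 1.62-fold higher with IFN-λ2 (limma adjusted p = 0.0033).

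**Figure D3:**
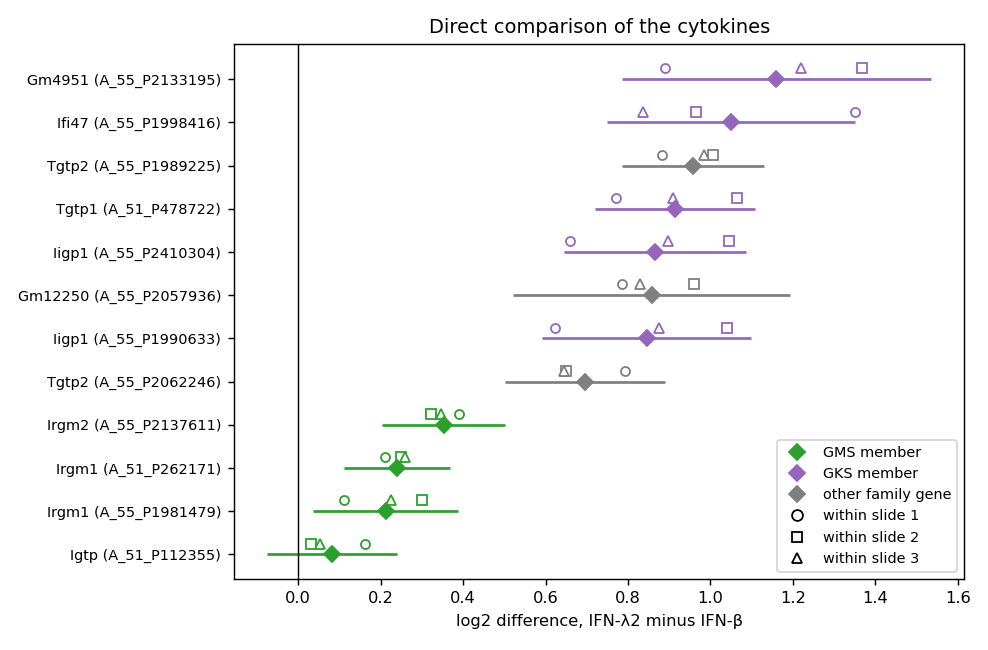
Direct log2 difference, IFN-λ2 minus IFN-β, for the member probes and for Tgtp2 and Gm12250. Diamonds with bars are limma estimates with 95% confidence intervals, and open symbols are the differences within each slide. The bar of Igtp crosses 0, and the GKS probes lie between 0.85 and 1.16.

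The rest of the family did not move as one. Of 16 further names of IRG genes and relatives, 11 were on the array and 9 were tested, at 1 probe per gene. With IFN-λ2, 4 of the 9 were called higher and 1 lower (10.1% and 8.39% of all probes), with IFN-β 3 were called higher and none lower (1.42% and 0.211%), and in the direct comparison 3 were higher and none lower under IFN-λ2 (5.64% and 5.56%). The 5 calls under IFN-λ2 were 3 when either control array was left out, and the 3 calls of the direct comparison were 1 without IFN-λ2 replicate 1. Tgtp2 rose 17.8-fold under IFN-λ2 and 11.0-fold under IFN-β (adjusted p = 1.79e-06 and 5.64e-06), and its second probe, A_55_P1989225, not well above background in the control, rose at least 10.6-fold and at least 5.47-fold. These bounds were set as for Tgtp1 and hold for the main background handling only. Both Tgtp2 probes also list transcripts of Tgtp1, so together with the Tgtp1 probe they describe the pair of genes.

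Gm12250, which encodes the effector Irgb10 that acts on bacterial membranes, read 84.0 and 88.2 units in the control, 609, 651 and 484 units with IFN-λ2 and 354, 335 and 273 units with IFN-β. Its groups did not overlap, and IFN-λ2 raised it 6.70-fold (limma adjusted p = 8.18e-05) and IFN-β 3.70-fold (adjusted p = 0.00107), with a difference of 1.81-fold between the cytokines (adjusted p = 0.0115). BC023105, a pseudogene that has no IRG name in the RefSeq table, was kept in the list as an uncertain member, and without it 3, 2 and 2 of 8 genes were called higher in the same 3 comparisons. It was below the background threshold on both untreated arrays. With the main background handling, IFN-λ2 raised it by at least 3.63-fold and IFN-β by at least 1.97-fold, with a 1.84-fold difference between them (adjusted p = 0.0154). 9930111J21Rik2 was called with IFN-λ2 (2.37-fold, adjusted p = 0.0229) and not with IFN-β (2.24-fold, adjusted p = 0.132), with no call between the cytokines (1.06-fold, adjusted p = 0.88). Irgq, a distant relative, fell by 0.57 on the log2 scale with IFN-λ2 (adjusted p = 0.0106) and was at -0.28 with IFN-β (adjusted p = 0.346). No call was made for 9930111J21Rik1, Gm5431, F830016B08Rik and Gm12185. F830016B08Rik was well above background on 1 of the 8 arrays, and Gm12185, whose promoter held the arrangement of GAS and ISRE described above, on none. Irgc1, a member expressed in testis, was not tested.

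Among the partner systems, most of the other interferon-inducible large GTPases rose as well. These include the guanylate-binding proteins, which coat the same vacuoles, and the antiviral MX proteins. Of 14 tested, 12 were called higher with IFN-λ2 and 10 with IFN-β, with none lower (10.1% and 1.42% of all probes were called higher), and median log2 changes were 2.80 and 2.48. The largest changes with IFN-λ2 were those of Mx1 (log2 change 4.89 with IFN-λ2 and 3.92 with IFN-β), Gbp3 (4.86 and 4.67) and Mx2 (4.45 and 4.21), and the cells carry a reporter of the Mx2 promoter. In the direct comparison 4 were called higher with IFN-λ2, against 5.64% of all probes. These were Gbp8 (log2 difference 1.83), Gbp11 (1.65), Mx1 (0.97) and Gbp4 (0.89). Gbp8 was well above background on 2 of 3 IFN-β arrays. The GBP genes of this comparison, like Map1lc3b and Socs3 below, were named after their values were seen. The autophagy list held conjugation genes, whose products mark the vacuoles for IRG loading, and also Ulk1, Becn1 and Sqstm1, which are not conjugation genes. Its log2 changes were between -0.35 and 0.34 with IFN-λ2 and between -0.18 and 0.24 with IFN-β. Of 15 tested, 2 were called higher with IFN-λ2, the ubiquitin-like Atg12 (log2 change 0.34, adjusted p = 0.0174) and its partner Atg5 (0.27, adjusted p = 0.0304), and none with IFN-β. A share of 2 in 15 is near the 10.1% of all probes called in that direction. The count was 1 with the replicate block, 0 with normexp background correction, and 0 when IFN-λ2 replicate 1 or IFN-λ2 replicate 3 was left out. It was 4 with a floor of 50 units and 5 with a variance prior with trend. The kinase Ulk1 was at -0.35 with IFN-λ2 (adjusted p = 0.067) and was lower with IFN-λ2 than with IFN-β (difference -0.50, adjusted p = 0.0197), as was Map1lc3b, which encodes an LC3 protein (-0.46, adjusted p = 0.00748). These 2 calls compare with 5.56% of all probes called lower, and 1 was left without any 1 of the IFN-λ2 replicates or without IFN-β replicate 2.

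No receptor gene passed the test in either comparison with control. Log2 changes of Ifnar1 and Ifnar2, the receptor of IFN-β, and of Il28ra and Il10rb, the receptor of IFN-λ2, were between -0.16 and 0.03 with IFN-λ2 and between -0.22 and 0.04 with IFN-β. Of 19 receptor and signalling genes tested, 7 rose with IFN-λ2 and the same count rose with IFN-β (10.1% and 1.42% of all probes), while Socs3, an inhibitor of cytokine signalling, fell with IFN-λ2 (log2 change -0.71, adjusted p = 0.0018, a call that 8.39% of all probes had). Among the largest changes were those of the feedback protease Usp18 (log2 change 3.77 under IFN-λ2 and 3.57 under IFN-β) and the transcription factor Irf7 (3.67 and 3.85). When the cytokines were compared directly, 1 of the 19 was called, Socs3, which was lower under IFN-λ2 (difference -0.48, adjusted p = 0.00869), against 5.56% of all probes called lower and 5.64% called higher. This count depended on the processing. It was 3 with the authors' series table, quantile normalization or a filter on probes well above background on at least 2 arrays, 4 with a floor of 50 units or a variance prior with trend, and 2 with only the groups compared in the fit, or when either control array or IFN-β replicate 1 was left out.

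Ifng itself could not be tested because its probe was too dim, and 6 of 10 genes of the IFN-γ list were. With IFN-λ2, 3 of the 6 were called higher, with IFN-β 1, and 2 were higher under IFN-λ2 in the direct comparison, against 10.1%, 1.42% and 5.64% of all probes. The count of the direct comparison was 4 with normexp background correction or without IFN-λ2 replicate 1. Cd74, the invariant chain of class II antigen presentation, was at a log2 change of 2.25 with IFN-λ2 (limma adjusted p = 1.67e-05) and 0.29 with IFN-β (adjusted p = 0.284). Cd274, the checkpoint ligand PD-L1, changed by 1.87 with IFN-λ2 and 1.02 with IFN-β (adjusted p = 5.04e-06 and 0.000124). Ciita, the transactivator of class II genes, was well above background on 2 of the 3 arrays of each cytokine. Its mean was 70.02 units in the control, 68.7 with IFN-β and 23.1 with IFN-λ2, and the log2 change with IFN-λ2, -1.60, was not called (adjusted p = 0.114).

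**Figure D4:**
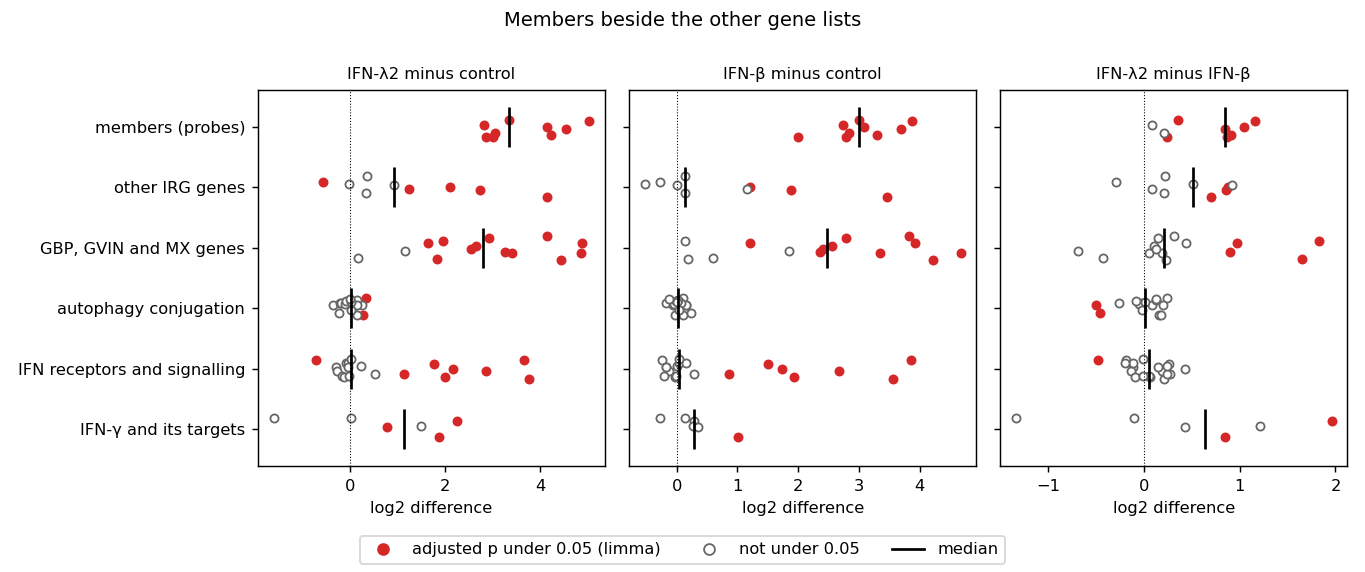
Log2 differences of the 9 member probes and of the tested genes of 5 lists (1 probe per gene) in the 3 comparisons, with filled points for a limma adjusted p under 0.05 and a bar at each median. The autophagy genes lie between -0.35 and 0.34 with IFN-λ2, while 12 of the 14 large GTPases and all member probes are filled.

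Many other probes had a pattern like that of the members across the 8 arrays. Each member probe's log2 signals were centred and averaged, and the average was correlated with the 20267 probes that were well above background on all arrays. The 5 genes most alike were Apol9a (Pearson r = 0.9997), the antiviral Ifit1 (0.9995), Tgtp2 (0.9991), Apol9b (0.9990) and the RNA sensor Dhx58 (0.9988), for which IFN-λ2 exceeded IFN-β by 0.70 to 0.79 on the log2 scale. As many as 63 probes had an r above 0.99, and the order among them is set by the step between the 3 groups, which all arrays of a group share. By Spearman's rank correlation none of these 5 genes was among the top 5, where 9 probes were tied.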

How the data were processed

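Total RNA of IEC10 cells was hybridized by the authors to 1-color Agilent arrays, scanned and read with Agilent Feature Extraction 10.7.3.1. Per the file headers, the deposited values are intensity values of the green channel (processed signal, background-subtracted within the array). A value table of the series, which the authors had scaled, was set beside them as an alternative. Its values for the members were 0.909 to 0.929 times the ones used here wherever they were above the floor. From the processed signals the steps of the methods were repeated: features with an outlier flag, outside 1.42 interquartile ranges of their on-chip copies or with a pixel coefficient of variation above 0.5 were left out (313 to 424 of 43020 per array), copies were averaged by the geometric mean, each array was scaled to a 75th percentile of 1500 (factors 0.691 to 0.775), values under 15 were set to 15, and log2 was taken. Values per array in the text are those before the floor.

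Groups were taken from the sample labels. Probes above 15 on at least 2 arrays were tested (26009 of 39429) with limma 3.58.1 in R 4.3.3, with 3 group means over the 8 arrays and Benjamini-Hochberg adjustment. The number of arrays limits the precision. On simulated data with 200 changed probes per size, the fit recovered 87.0%, 82.5% and 89.0% of log2 shifts of 1 and 100.0%, 98.5% and 98.5% of shifts of 2 in the comparisons of IFN-λ2 with control, of IFN-β with control and of both cytokines, in that order. Of the unchanged probes, 18, 22 and 20 were called in the same order. The changed probes were drawn from the brighter ones, with independent noise, no floor and no pairing by slide. The recovered shares therefore do not describe dim probes. The members and gene lists were chosen with earlier results of these data known. Named were all member probes, all tested genes of the other IRG list, the 3 largest changes with IFN-λ2 in each other list (1 probe per gene, the brightest), the 5 genes most alike, and Ifit1, Isg15 and Usp18. One gene that this rule names is not reported here. Same-numbered IFN-λ2 and IFN-β arrays deviated together (correlations of 0.184, 0.283 and 0.316 across probes) and shared a slide. The reported p-values come from the fit without this pairing, which enters only as the alternative with the replicate number as a block; control arrays showed correlations of -0.051 to 0.100 with the others. Array coordinates are on mm9, and promoters are from RefSeq. Control replicate 1 was not analysed here.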

Additional observations from a re-analysis of the deposited data

How the results depend on the processing

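All 9 member probes stayed called higher with IFN-λ2 than control under every alternative run. With IFN-β against control the count was 9 under all of them but the methods' t-test after Benjamini-Hochberg adjustment, which gave 7, without Ifi47 (adjusted p = 0.0728) and Gm4951 (0.0750). In the direct comparison of IFN-λ2 with IFN-β, 7 probes were called. Of these, 2 also reached 2-fold and 0 passed when the methods' t-test was used with their threshold (an unadjusted p of 0.001 and 2-fold). Leaving out 1 array at a time gave 5 to 7 probes there, and 9 in both comparisons with control. The replicate block, which pairs arrays by slide, gave 6 probes, without Irgm1 probe A_51_P262171 (adjusted p = 0.0746), and changed no other call of a member. Normexp background correction removed the calls of Irgm1 probe A_51_P262171 (adjusted p = 0.120) and Irgm2 (0.0767), and quantile normalization that of the same Irgm1 probe (0.0536); the cause was not tested. No direction reversed. The size of the rise of dim probes depends on background handling: with normexp the log2 change with IFN-λ2 was 2.20 for Tgtp1, 3.20 for Iigp1 probe A_55_P1990633, 2.31 for A_55_P2410304 and 3.94 for Gm4951. With 2 control arrays, leaving out replicate 2 or 3 gave a log2 rise of Gm4951 with IFN-λ2 of 5.26 or 4.81. Across alternatives, all probes called in both directions numbered 1611 to 5528 with IFN-λ2, 100 to 527 with IFN-β and 1385 to 3361 between the cytokines. Counts of called autophagy genes ran from 0 to 5 and of other IRG genes from 3 to 5 with IFN-λ2, and between the cytokines those of receptor and signalling genes ran from 1 to 4 and of IFN-γ list genes from 2 to 4.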
